A study of Mus musculus with 12 samples.

Results

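The DOT1L inhibitor SGC0946 was compared with its vehicle DMSO in mouse embryonic fibroblasts (MEFs) with intact AF10 on day 4 of reprogramming, by sequencing of polyadenylated RNA. The comparison rested on 4 of the 12 libraries of the study, Day4_fl_DMSO and Day4_fl_SGC with 2 replicates each, which were taken by their titles and paired by replicate number. Both groups had the genotype AF10 fl/fl, OSKM, rtTA: floxed alleles of AF10 (the gene Mllt10), a cassette of the reprogramming factors Pou5f1, Sox2, Klf4 and Myc, and the activator through which doxycycline turns that cassette on. Both received the empty virus Ad5-CMV-Empty, which left AF10 in place, and 2 days later 2 µg/mL doxycycline with DMSO or with 5 µM SGC0946. The dishes held ESC medium with LIF and a layer of DR4 feeder MEFs, so a day 4 library can also hold feeder RNA. In bulk RNA, fewer cells of a type and less RNA per cell cannot be told apart. Beside them stood Day4_creAF10_DMSO and Day4_creAF10_SGC, cells of genotype AF10 -/-, OSKM, rtTA that had received Ad5-CMV-Cre and were otherwise handled alike.

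DOT1L is a methyltransferase that modifies a lysine in the globular core of histone H3, mainly over the bodies of transcribed genes, and AF10 binds it and promotes its higher methylation states. In fibroblasts made to express reprogramming factors, DOT1L is known as a barrier whose inhibition raises the yield of induced pluripotent cells. Early reprogramming is known for a shift in which fibroblasts lose mesenchymal genes and switch on genes of epithelia, such as the cadherin Cdh1.

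The libraries held 16834238 and 21109210 expected counts in DMSO and 14728087 and 14602536 in SGC0946 (replicates 1 and 2, an order kept below), so both inhibitor libraries were shallower. The tables list 20325 genes, of which 13936 passed a filter on low counts. Levels are CPM, counts scaled to a common library size with TMM factors. Changes are log2 of SGC0946 over DMSO with SE, n = 2 libraries per group. A gene was called at a Benjamini-Hochberg adjusted p under 0.05 of edgeR's quasi-likelihood F test with the replicate number as a block. The SE is the size of the change divided by the square root of that test's F. It thus draws on the fit over all 12 libraries and on other genes, and is not the spread of the 2 libraries of a group. The 4 Y-linked genes tested summed to 275 and 2.38 CPM in DMSO and to 264 and 1.32 in SGC0946, so the replicate numbers marked 2 sources of cells of different sex. The p-values therefore measure how alike the change was in these 2 sources. With 2 libraries per group, the levels of a gene can lie apart between groups without any effect. The share of all genes in which they did was not counted. The 43 fibroblast matrix genes examined summed to 36300 and 36000 CPM in DMSO and 38400 and 36300 in SGC0946, all of them above the filter. Dot1l stood at 59.9 and 52.7 CPM in DMSO and at 71.3 and 58.3 in SGC0946 (0.20 ± 0.077, adjusted p = 0.0717), and Mllt10 at 61.4, 55.3, 54.1 and 55.7 CPM (-0.08 ± 0.077, adjusted p = 0.51). An inhibitor of the enzyme need not alter these transcripts, and the methylation mark itself was not analysed here.

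Genes called higher with SGC0946 were often weakly expressed and changed by larger factors than genes called lower. Of the 13936 genes, 1480 were higher (10.6%) and 990 lower (7.1%). The median log2 change was 0.71 among the genes called higher and -0.35 among those called lower; at a mean of at least 10 CPM these medians were 0.43 and -0.33, and under it 1.09 and -0.66. More than 2-fold changes were 489 among the higher and 32 among the lower genes. Without the replicate block, where the difference between the 2 sources stays in the error term, 123 genes were called higher (0.883%) and 32 lower (0.23%), all of them among the first calls. The counts were 916 and 594 without Day4_fl_DMSO replicate 1, 826 and 410 without Day4_fl_DMSO replicate 2, 930 and 609 without Day4_fl_SGC replicate 1, and 986 and 537 without Day4_fl_SGC replicate 2. With each of the 4 libraries left out in turn, 566 of the 1480 and 241 of the 990 genes were called every time.

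The 2 directions differed in level and in transcript length. Genes called higher had a median of 10.4 CPM over the 4 libraries and genes called lower one of 48.0, against 27.6 for all genes tested. At a mean of at least 10 CPM, 752 of 9816 genes were higher and 885 lower, and 60 against 4 of these changed by more than 2-fold. The 4 were the transcription factor Osr1 (-1.31), the RNA-binding protein Igf2bp1 (-1.0), the lysozyme Lyz2 (-1.04) and Adhfe1 (-1.02), the last chosen after its values were seen. Under 10 CPM, 728 of 4120 genes were higher and 105 lower, and the median of all 4120 was 0.20, with 0.19 and 0.18 within the replicates. Both SGC0946 libraries were shallower than both DMSO libraries, and the part of depth in these values was not tested. The same 4120 genes had a median of 0.16 in the AF10-deleted cells. The median transcript length was 2802 bases for genes called higher and 3939 for genes called lower, against 2838 for all. The median change went from 0.034 in the fifth of genes with the shortest transcripts to -0.052 in the fifth with the longest, while in the AF10-deleted cells it went from -0.033 to 0.03. With this trend taken out, 1489 genes were higher and 877 lower.

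**Figure D1:**
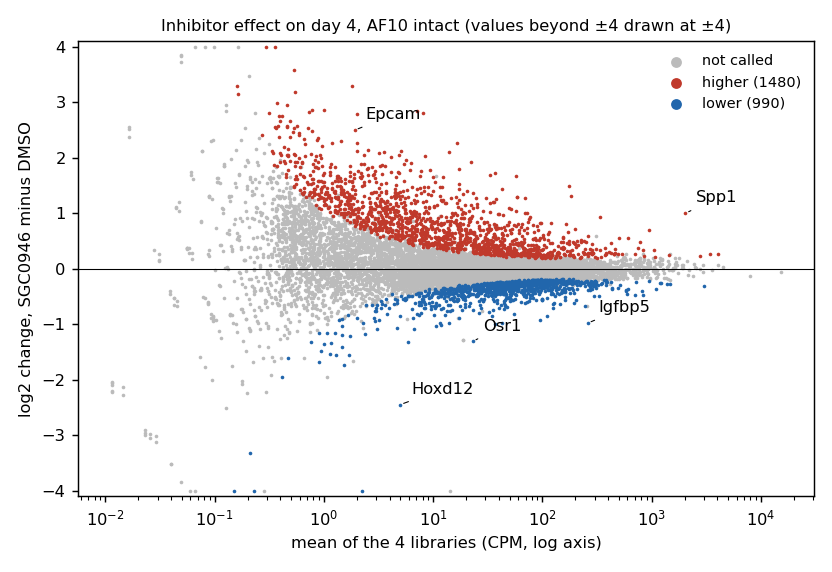
Log2 change with SGC0946 against the mean level of the 4 libraries in CPM on a log axis, 1 point per gene, with genes called higher in red and lower in blue. Red points spread far upwards at low levels, while blue points lie in a narrow band below 0; Epcam, Spp1, Igfbp5, Osr1 and Hoxd12 are named.

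The 3 marker genes of the comparison are described first. Epcam, an adhesion protein of epithelial cells, had 0.46 and 0.642 CPM in DMSO and 4.25 and 2.31 in SGC0946. It was low in all 4 libraries, and both inhibitor libraries lay above both DMSO libraries. Epcam rose by 2.50 ± 0.33 (adjusted p = 3.42e-06, and 0.0217 without the block). Hoxd12, a homeobox factor of the distal limb, had 7.47 and 9.44 CPM in DMSO and 1.24 and 1.84 in SGC0946, with no overlap between the groups. It fell by 2.45 ± 0.20 (adjusted p = 1.09e-09, and 0.0196 without the block). Igfbp5, a secreted binding protein of insulin-like growth factors, had 335 and 356 CPM in DMSO and 165 and 184 in SGC0946. The groups were far apart, and the change of -0.98 ± 0.077 was close to the same in both sources (-1.02 and -0.95; adjusted p = 6.53e-10, and 0.0196 without the block).

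The sequences of 250 bases before the starts of Epcam and Hoxd12, the markers with the largest rise and the largest fall, are shown from RefSeq, build GRCm38.p6; the expression tables were made on mm9, and these coordinates are of the RefSeq table alone. Both are on the plus strand, Epcam at chr17:87635729-87635978 and Hoxd12 at chr2:74674763-74675012. Capitals mark matches on either strand to CAGGTG, the E-box bound by Zeb and Snai repressors, to the GC box GGGCGG and to the TATA letters TATAAA.
Epcam: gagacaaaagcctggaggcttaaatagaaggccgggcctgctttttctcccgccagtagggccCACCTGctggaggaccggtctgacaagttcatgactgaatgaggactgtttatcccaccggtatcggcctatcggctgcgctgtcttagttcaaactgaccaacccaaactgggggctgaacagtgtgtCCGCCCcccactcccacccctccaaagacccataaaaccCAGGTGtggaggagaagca
Hoxd12: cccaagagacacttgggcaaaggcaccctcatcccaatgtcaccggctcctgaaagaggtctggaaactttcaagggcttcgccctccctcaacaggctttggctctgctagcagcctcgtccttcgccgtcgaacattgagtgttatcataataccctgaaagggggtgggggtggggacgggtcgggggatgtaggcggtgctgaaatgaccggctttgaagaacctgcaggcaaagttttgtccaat
The Epcam window held the E-box letters 2 times and the GC box 1 time, and the Hoxd12 window held none of the 3 motifs. Of 32851 windows of the same length, 17.2% held the E-box letters, 32.7% the GC box and 12.4% the TATA letters. A match is a description of letters and was not tied to binding.

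Epithelial genes were the list with the highest share of higher calls. Of 49 genes listed, 36 passed the filter, and 22 of these rose and 1 fell (61.1% and 2.78%, against 10.6% and 7.1% of all genes), with a median of 0.71. Without the block 4 rose and 0 fell, and 12 of the 22 were called with each library left out in turn. Cdh1, the cadherin that joins epithelial cells, had 28.8 and 18.0 CPM in DMSO and 65.3 and 58.1 in SGC0946. Spint1, an inhibitor of membrane serine proteases, had 4.37 and 4.03 CPM in DMSO and 16.2 and 12.8 in SGC0946, and its relative Spint2 had 13.7, 10.5, 27.2 and 26.2. In all of these genes both inhibitor libraries exceeded both DMSO libraries. Cdh1 rose by 1.43 ± 0.11 (adjusted p = 1.36e-09, and 0.0741 without the block), Spint1 by 1.78 ± 0.16 (3.84e-09, and 0.0194) and Spint2 by 1.15 ± 0.12 (3.94e-08, and 0.0196). The desmosomal cadherin Dsc2 rose by 1.47 ± 0.17 and the tight junction protein F11r by 0.85 ± 0.095.

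Further epithelial members are given after their values were seen. The simple-epithelial keratins Krt18 (2.26 ± 0.30) and Krt8 (1.15 ± 0.24), the tight junction proteins Cldn3 (1.75 ± 0.21) and Ocln (2.56 ± 0.74), and the desmosomal genes Dsg2 (2.57 ± 0.64) and Pkp1 (1.33 ± 0.21) rose, all of them from under 4 CPM in DMSO. The splicing regulator Esrp2 rose too, by 1.30 ± 0.38. Of these 7 genes Krt8, Ocln, Dsg2 and Esrp2 were not called in every fit with a library left out. Fgfr2 was the member that fell (-0.27 ± 0.073), and the junction genes Cxadr (0.03 ± 0.073), Dsp (0.25 ± 0.095) and Perp (-0.20 ± 0.076), all above 35 CPM in DMSO, were not called. The 13 members under the filter had at most 10 counts in any of the 4 libraries. They included the epithelial regulators Grhl2, with 1 count in all, Esrp1, with 1, and Ovol2, which had 1 and 1 count in DMSO and 9 and 5 in SGC0946. The summed level of the 49 genes was 599 and 623 CPM in DMSO and 757 and 752 in SGC0946.

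Genes of basal, stratified epithelium were examined beside them. Of 14 tested, 5 rose and 1 fell (35.7% and 7.14%, against 10.6% and 7.1% of all genes), with a median of 0.57. All 6 of these calls held with each library left out, while 2 rose and 0 fell without the block. Trp63, the transcription factor of basal epithelium, went from 20.2 and 20.3 CPM to 40.9 and 50.7 (1.18 ± 0.10), the cross-linking enzyme Tgm1 rose by 1.22 ± 0.15, the laminin chain Lama3 by 0.72 ± 0.11 and the integrin Itga6 by 0.56 ± 0.086. The cytoskeletal linker Dst, named as the member that fell, changed by -0.41 ± 0.076. The summed level of the 20 listed genes was 873 and 1050 CPM in DMSO and 850 and 855 in SGC0946. The basal keratins were near 0: Krt14 had at most 0.0574 CPM and Krt15 at most 0.461 in the 4 libraries.

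**Figure D2:**
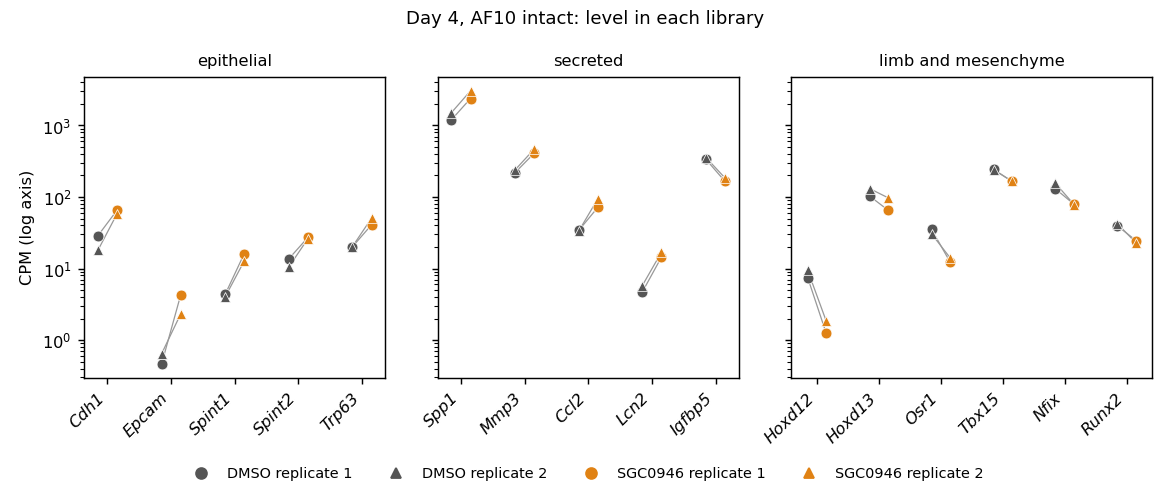
Level in CPM on a log axis of 16 genes in each of the 4 libraries, DMSO in grey and SGC0946 in orange, circles for replicate 1 and triangles for replicate 2, with a line joining the libraries of a replicate. In each gene both lines run the same way: upwards in the epithelial panel, upwards for 4 of the 5 secreted proteins and downwards for Igfbp5 and for the limb and mesenchyme factors. The 16 were chosen among called genes, so this agreement was built in: 1478 of 1480 higher and 987 of 990 lower calls share it.

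Hox genes set the identity of cells along the body and limb axes, and fibroblasts keep the Hox pattern of their place of origin. Of 39 genes in the HoxA, HoxB, HoxC and HoxD clusters 35 passed the filter, and 14 fell and 0 rose, with a median of -0.50. These are 40% lower and 0% higher, against 7.1% and 10.6% of all genes. Without the block 1 fell, Hoxd12, and with 1 library left out between 5 and 11 fell. The 5 that fell with each library left out were Hoxc6, Hoxd10, Hoxd11, Hoxd12 and Hoxd13. The summed Hox level was 455 and 460 CPM in DMSO and 333 and 371 in SGC0946.

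In the HoxD cluster the fall was centred on Hoxd12. Hoxd10, Hoxd11, Hoxd12 and Hoxd13 fell by 0.83 ± 0.13, 1.32 ± 0.17, 2.45 ± 0.20 and 0.54 ± 0.070, and Hoxd4 by 0.40 ± 0.13. Hoxd8 (-0.02 ± 0.14), Hoxd9 (0.12 ± 0.12) and Hoxd3 (-0.19 ± 0.18), which lie between or beside them, were not called. Hoxd13, the most highly expressed of the cluster, had 103 and 131 CPM in DMSO and 65.2 and 97.3 in SGC0946, so both inhibitor libraries lay below both DMSO libraries. Hoxd11 had 7.41 and 9.40 CPM in DMSO and 3.27 and 3.43 in SGC0946, and Hoxd10 had 14.1, 18.7, 7.32 and 11.2.

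The other clusters fell less far in well expressed members. Hoxa10, at 94.0 and 99.1 CPM in DMSO and 65.9 and 83.4 in SGC0946, fell by 0.38 ± 0.083, and Hoxa2 (-0.94 ± 0.22) and Hoxa5 (-0.50 ± 0.15) fell as well. Its neighbours Hoxa9 (0.17 ± 0.10), Hoxa11 (-0.12 ± 0.091) and Hoxa13 (-0.03 ± 0.14), all above 10 CPM, were not called. In HoxB the lower calls were Hoxb3 (-0.52 ± 0.17), Hoxb6 (-1.74 ± 0.33) and Hoxb8 (-1.21 ± 0.28), the last 2 at under 4 CPM. In HoxC they were Hoxc6 (-0.71 ± 0.15), Hoxc8 (-0.50 ± 0.15) and Hoxc10 (-0.64 ± 0.15). Of the 21 Hox genes that were not called, Hoxb9 came nearest (-0.56 ± 0.20, adjusted p = 0.0547). Among the 9 cofactors that bind DNA with Hox proteins, Pknox2 (0.66 ± 0.16), Meis3 (0.39 ± 0.12) and Pbx3 (0.26 ± 0.083) rose and Meis2 (-0.39 ± 0.097) fell, none of them without the block or in every fit with a library left out.

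**Figure D3:**
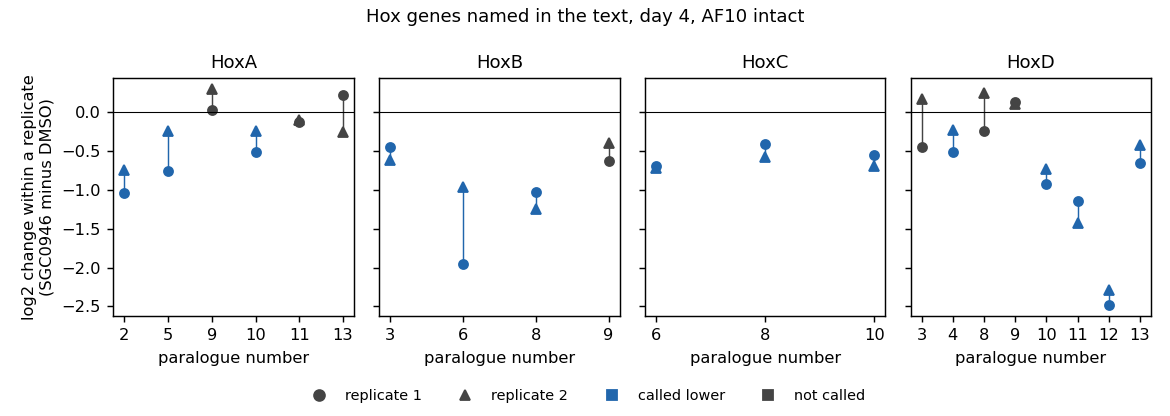
Log2 change within replicate 1 (circles) and replicate 2 (triangles) of the 21 Hox genes named in the text, by cluster and paralogue number, with genes called lower in blue. Hoxd10 to Hoxd13 lie below 0 in both replicates with the lowest point at Hoxd12, while Hoxa9, Hoxa11 and Hoxa13 lie around 0.

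Among transcription factors of limb and mesenchyme, 20 of 59 tested fell, 4 rose and 35 were not called (33.9% lower and 6.78% higher, against 7.1% and 10.6% of all genes), with a median of -0.22; without the block 4 fell and 0 rose, and 13 of the 20 fell with each library left out. Osr1, a zinc finger factor of limb and kidney mesenchyme, had 35.2 and 30.5 CPM in DMSO and 12.3 and 14.1 in SGC0946. Nfix, a nuclear factor I protein of muscle and connective tissue, went from 130 and 155 CPM to 78.9 and 78.3. Tbx15, a T-box factor of limb and dermis, had 244 and 241 CPM in DMSO and 165 in both inhibitor libraries. None of these groups overlapped. Osr1 changed by -1.31 ± 0.11 (adjusted p = 1.09e-09, and 0.0217 without the block), Nfix by -0.86 ± 0.074 (3.39e-09, and 0.0136) and Tbx15 by -0.56 ± 0.065 (4.12e-07, and 0.0136). Runx2, the regulator of bone formation, fell by 0.78 ± 0.094 and Foxp1 by 0.53 ± 0.070.

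More of the list are named after their values were seen. The limb-bud factors Tbx5 (-0.75 ± 0.10), Tbx4 (-0.53 ± 0.081) and Lmx1b (-0.77 ± 0.21), the hedgehog effector Gli3 (-0.46 ± 0.071), Hic1 (-0.77 ± 0.11), Nr2f2 (-0.57 ± 0.087) and Ebf3 (-0.51 ± 0.071) fell. The 4 that rose were Runx1 (0.55 ± 0.10), Runx3 (0.62 ± 0.19), Foxf2 (0.82 ± 0.24) and Foxp2 (0.40 ± 0.12). Lmx1b, Runx3, Foxf2 and Foxp2 were not called in every fit with a library left out. The summed level of the 61 listed genes was 2670 and 2660 CPM in DMSO and 2180 and 2220 in SGC0946. The factors that drive the epithelial-mesenchymal transition moved little: of 8, Zeb1 (-0.20 ± 0.065) and Tcf4 (-0.30 ± 0.069) fell, 0 of them without the block or in every fit with a library left out, while Snai1 (0.16 ± 0.15), Snai2 (-0.06 ± 0.077), Twist1 (0.06 ± 0.071) and Zeb2 (0.18 ± 0.080) were not called.

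Among secreted and inflammatory genes, 24 of 46 tested rose, 2 fell and 20 were not called, with a median of 0.47. These are 52.2% higher and 4.35% lower, against 10.6% and 7.1% of all genes. Without the block 2 rose and 0 fell, and 12 of the 24 rose with each library left out. Spp1, the matrix and cytokine protein osteopontin, had 1200 and 1510 CPM in DMSO and 2380 and 3050 in SGC0946. Mmp3, a matrix protease, went from 219 and 239 CPM to 409 and 467, and Ccl2, a chemokine for monocytes, from 34.1 and 33.3 to 71.5 and 94.2. The groups were apart in each gene. Spp1 rose by 1.00 ± 0.072 (adjusted p = 1.18e-10, and 0.123 without the block), Mmp3 by 0.94 ± 0.077 (1.36e-09, and 0.231) and Ccl2 by 1.30 ± 0.10 (2.31e-08, and 0.412). Lcn2, a carrier of iron-binding molecules, rose by 1.57 ± 0.14 (5.13e-09, and 0.0196) and the protease Plau by 1.03 ± 0.098. The 2 that fell were the growth factor Ereg (-0.76 ± 0.13) and the adhesion molecule Vcam1 (-0.37 ± 0.072), both chosen after their values were seen.

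Immediate early genes, which growth and stress signals switch on first, gave 10 higher and 0 lower calls of 23. These are 43.5% and 0%, against 10.6% and 7.1% of all genes. The median was 0.26, and 1 gene was higher without the block and 7 with each library left out. Dusp1, a phosphatase that ends kinase signals, had 61.2 and 113 CPM in DMSO and 94.1 and 177 in SGC0946. The replicates differed more than the treatments, and within each the inhibitor library was higher (0.62 and 0.65). Dusp1 rose by 0.63 ± 0.068 (adjusted p = 1.2e-07, and 0.636 without the block), Ier3 by 0.75 ± 0.084, Fosl2 by 0.47 ± 0.068, Atf3 by 1.18 ± 0.18 and Jund by 0.39 ± 0.069.

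Among interferon response genes, 13 of 39 tested fell, 3 rose and 23 were not called, with a median of -0.16. These are 33.3% lower and 7.69% higher, against 7.1% and 10.6% of all genes. Without the block 0 were called, and 3 of the 13 fell with each library left out. Ifit1, an RNA-binding antiviral protein, had 7.18 and 11.1 CPM in DMSO and 3.60 and 4.94 in SGC0946 (-1.09 ± 0.16, adjusted p = 1.62e-05, and 0.325 without the block). Both inhibitor libraries lay below both DMSO libraries. Irf9, a factor of the interferon response, fell by 0.38 ± 0.082 and the ubiquitin-like Isg15 by 0.89 ± 0.17, while the proteasome subunit Psmb8 rose by 0.93 ± 0.18. Isg15 and Psmb8 were each lost in at least 1 fit with a library left out.

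The extracellular matrix changed in both directions. Of 43 fibroblast matrix genes 14 rose and 7 fell (32.6% and 16.3%, against 10.6% and 7.1% of all genes), with a median of 0.16. Without the block 0 rose and 1 fell, and 7 and 2 were called with each library left out. Lox, which cross-links collagen, had 516 and 457 CPM in DMSO and 755 and 675 in SGC0946, and rose by 0.56 ± 0.073. Loxl4 of the same family rose by 0.79 ± 0.077, the fibril-associated collagen Col14a1 by 1.19 ± 0.16 and the microfibril protein Mfap4 by 0.55 ± 0.084. Abi3bp, a matrix protein, was well below its DMSO level in both inhibitor libraries: it had 120 and 130 CPM in DMSO and 60.3 and 71.2 in SGC0946 (-0.93 ± 0.074, adjusted p = 1.02e-09, and 0.0196 without the block). Of 20 other collagens 6 rose and 0 fell (30% and 0%). Col28a1 led them with 5.17 and 5.27 CPM in DMSO and 22.7 and 22.3 in SGC0946 (2.10 ± 0.13, adjusted p = 3.77e-12, and 0.0196 without the block), and the basement membrane collagens Col4a6 (0.83 ± 0.14) and Col15a1 (0.46 ± 0.070) rose as well. Of 26 contractile and TGF-beta genes 6 rose and 3 fell (23.1% and 11.5%), and 0 and 0 without the block. The ligands Tgfb1 (0.87 ± 0.12) and Tgfb3 (0.47 ± 0.072) rose, and the receptor Tgfbr2 (-0.38 ± 0.068) fell.

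Signalling lists were also mixed. In the insulin-like growth factor axis 7 of 19 genes rose and 2 fell (36.8% and 10.5%, against 10.6% and 7.1% of all genes). Without the block 0 rose and 1 fell. The growth factor Igf2 had 796 and 1120 CPM in DMSO and 537 and 861 in SGC0946, so the groups overlapped while both replicates went down (-0.57 and -0.38; -0.47 ± 0.077). Its binding proteins Igfbp4 (0.50 ± 0.077), Igfbp6 (0.65 ± 0.10) and Igfbp7 (0.49 ± 0.090) rose, against the fall of Igfbp5 above. Of 38 WNT genes 15 rose and 3 fell (39.5% and 7.89%), with a median of 0.25. Without the block 1 rose and 1 fell, and 8 and 3 were called with each library left out. The nuclear effectors Tcf7 (1.81 ± 0.26) and Lef1 (1.26 ± 0.19), the receptor Fzd1 (0.49 ± 0.067), the inhibitor Nkd2 (1.42 ± 0.15) and the secreted Wisp2 (0.55 ± 0.074) rose. Tcf7 and Lef1 stood at under 3 CPM in DMSO. The ligand Wnt5a (-0.44 ± 0.072), the receptor Fzd5 (-0.33 ± 0.071) and the R-spondin receptor Lgr4 (-0.52 ± 0.080) fell, all 3 chosen after their values were seen. Of 20 genes of FGF signalling and its feedback 3 rose and 6 fell (15% and 30%), 0 and 1 without the block, and 1 to 3 fell with a library left out. Spry2, a feedback inhibitor, had 79.6 and 89.7 CPM in DMSO and 54.3 and 55.5 in SGC0946 (-0.62 ± 0.071, adjusted p = 3.07e-07, and 0.0196 without the block), the effector Etv5 fell by 0.35 ± 0.072, and the ligand Fgf7 rose by 0.45 ± 0.077. Of 30 genes of BMP signalling 5 rose and 5 fell (16.7% each), 1 and 0 without the block and 1 and 0 in every fit with a library left out. Among them were the antagonist Fst (0.48 ± 0.074) and the receptor Bmpr1a (-0.28 ± 0.069). Bmpr1a, Etv5 and Igfbp7 were not called in every such fit.

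The reprogramming factors themselves stood slightly lower. Pou5f1 had 127 and 140 CPM in DMSO and 115 and 97.0 in SGC0946, Klf4 had 198, 215, 180 and 167, and Myc had 344, 311, 282 and 278. The groups did not overlap in these 3 genes, which fell by 0.35 ± 0.087, 0.25 ± 0.071 and 0.22 ± 0.067 (adjusted p = 0.00715, 0.0122 and 0.0184; 0.446, 0.532 and 0.583 without the block). None of the 3 was called in every fit with a library left out. Sox2 (-0.12 ± 0.076) was not called. Reads from the cassette and from the endogenous genes cannot be told apart here. Of 17 tested pluripotency genes 3 rose and 2 fell (17.6% and 11.8%, against 10.6% and 7.1% of all genes). Without the block 1 rose and 0 fell. The surface and signalling genes Fut4 (0.95 ± 0.31) and Gdf3 (1.64 ± 0.31) and the factor Klf2 (1.02 ± 0.16, adjusted p = 5.36e-05, and 0.0196 without the block) rose, and Fgf4 (-0.67 ± 0.14) and Sall1 (-0.48 ± 0.12) fell. Fut4, Fgf4 and Sall1 were not called in every fit with a library left out. Klf2 had 3.91 and 4.63 CPM in DMSO and 9.55 and 7.91 in SGC0946, against 79.7 and 87.0 in the MEF libraries with AF10 intact. Its rise thus went towards the fibroblast level. Nanog, the core factor, had 0.977 and 0.55 CPM in DMSO and 2.42 and 1.45 in SGC0946 and was not called (1.33 ± 1.07). Members of the established pluripotent state such as Esrrb, Zfp42, Lin28a and Dppa4 had at most 1 count in any of the 4 libraries.

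Among genes of the cell cycle, 1 of 40 rose and 4 fell (2.5% and 10%, against 10.6% and 7.1% of all genes). Without the block 0 were called, and with a library left out 0 rose and 1 or 2 fell. Of 19 inhibitors and partners of the G1 kinases, 1 rose and 6 fell (5.26% and 31.6%). Without the block these were 0 and 1, and 2 or 3 fell with a library left out. Cdkn2c, an inhibitor of these kinases, had 19 and 18.3 CPM in DMSO and 9.87 and 9.16 in SGC0946 (-0.97 ± 0.14, adjusted p = 1.44e-05, and 0.0366 without the block), and the inhibitor Cdkn1b fell by 0.53 ± 0.090. The oncofetal and imprinted genes gave 1 higher and 6 lower calls of 18 (5.56% and 33.3%). Igf2bp1, an RNA-binding protein of fetal tissue, went from 48.1 and 49.6 CPM to 26.0 and 22.9 (-1.0 ± 0.090, adjusted p = 5.13e-09, and 0.00634 without the block). Its groups were far apart. Grb10 (-0.48 ± 0.072), Slc38a4 (-0.56 ± 0.069) and Nnat (-0.72 ± 0.13) fell with it, and Peg10 rose by 0.89 ± 0.076.

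Of the 13 genes of the DOT1L complex and its partners none was called (0 also without the block), and their changes lay between -0.17 and 0.20. In a list of the super elongation complex and other elongation factors 1 of 25 genes was called higher (4%) and 0 lower. It was Supt4h1 (0.31 ± 0.077), an elongation factor outside that complex, and it was not called in every fit with a library left out. Polycomb genes gave 3 higher and 2 lower calls of 31 (9.68% and 6.45%) and DNA methylation genes 2 and 1 of 15 (13.3% and 6.67%), close to the 10.6% and 7.1% of all genes. Histone methyltransferases and demethylases gave 0 and 2 of 31 (0% and 6.45%). None of these calls was made without the block, and in every fit with a library left out 0 polycomb genes, 1 DNA methylation gene and 1 gene of the last list were called. In that list Whsc1, a methyltransferase of histone H3, fell from 92.8 and 87.6 CPM to 64.1 and 64.8 (-0.48 ± 0.070). Glycolysis and hypoxia genes rose in 6 of 25 cases and fell in 1 (24% and 4%). Among them were the lactate exporter Slc16a3 at 1.46 ± 0.17 and the glucose transporter Slc2a3 at 0.81 ± 0.090. Genes of cholesterol and fatty acid synthesis gave 1 higher and 3 lower calls of 31 (3.23% and 9.68%). The p53 targets gave 3 and 3 of 26 (11.5% each), and genes of the unfolded protein response 4 and 1 of 23 (17.4% and 4.35%). The share of p53 targets called higher was close to the 10.6% of all genes. Without the block 1 gene of these last 4 lists was called, a lower one of the synthesis list.

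Many of the strongest calls lay outside these lists. Angptl7, a secreted angiopoietin-like protein, had 98.8 and 110 CPM in DMSO and 253 and 269 in SGC0946 (1.32 ± 0.069, adjusted p = 3.36e-13, and 0.475 without the block). Aox3, an aldehyde oxidase, went from 16.6 and 17.7 CPM to 53.1 and 60.0 (1.72 ± 0.089, and adjusted p = 0.0107 without the block), and Xdh, the related xanthine dehydrogenase, from 8.21 and 7.20 to 30.1 and 23.6 (1.80 ± 0.12). The inhibitor libraries were the higher ones in each gene. The secreted protease Htra3 (1.93 ± 0.11), the kinesin Kif1a (1.69 ± 0.096), the receptor kinase Ret (1.30 ± 0.087), the adaptor Efs (1.53 ± 0.11) and the copper carrier Cp (1.21 ± 0.085) also rose. Chodl, a membrane lectin, had 3.16 and 1.05 CPM in DMSO and 16.9 and 11.3 in SGC0946 (2.80 ± 0.21). On the lower side Tcfap2b, an AP-2 transcription factor, went from 51.2 and 61.9 CPM to 26.0 and 31.2 (-0.98 ± 0.086, adjusted p = 3.76e-09, and 0.34 without the block). Nrp1, a receptor of semaphorins and VEGF, fell by 0.71 ± 0.071, the sulphotransferase Hs6st2 by 0.63 ± 0.065, the chromatin reader Zmynd8 by 0.63 ± 0.068, the zinc finger factor Mecom by 0.73 ± 0.080 and the kinase Nrk by 0.86 ± 0.089.

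Markers of other cell types that a dish could hold were examined by list. The 25 macrophage and blood genes summed to 80.5 and 92.0 CPM in DMSO and 70.8 and 88.6 in SGC0946. Of 18 tested 1 rose and 3 fell (5.56% and 16.7%, against 10.6% and 7.1% of all genes), with a median of -0.46 (0 and 0 without the block). Lyz2 of this list went from 14.4 and 14.1 CPM to 7.45 and 6.26 (-1.04 ± 0.25), a call lost in at least 1 fit with a library left out, while Cd14 rose (1.20 ± 0.27), and Hbb-b1 was at 0 in all 4 libraries. The part of such cells in the interferon and inflammatory results was not tested. Of 12 adipocyte genes 6 rose and 0 fell (50% and 0%), and 2 rose without the block. The fatty acid carrier Fabp4 had 10.7, 11.6, 30.3 and 28.9 CPM (1.41 ± 0.12), and the factor Cebpa rose by 0.63 ± 0.094. The lipid carrier Apoe had 47.9, 33.0, 108 and 85.7 CPM (1.27 ± 0.073). Other members of the list were near 0: Plin1, Cfd and Lep, all under the filter, had at most 1 count in any of the 4 libraries. Ptgds, also under it, had 1, 1, 8 and 4 counts. Among 24 genes of cartilage and bone cells 8 rose and 2 fell (33.3% and 8.33%), with the collagens Col9a2 (2.01 ± 0.21) and Col10a1 (0.73 ± 0.094) up and Runx2 down. Endothelial genes gave 2 higher calls of 6 (33.3%), muscle genes 3 of 12 (25%), and neural genes 2 higher and 2 lower of 13 (15.4% each). Of these calls 0 were made without the block, and 0 muscle genes were called in every fit with a library left out. The endothelial genes Pecam1, Tie1, Emcn, Vwf, Cldn5 and Esam, all under the filter, had at most 7 counts in any of the 4 libraries.

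**Figure D4:**
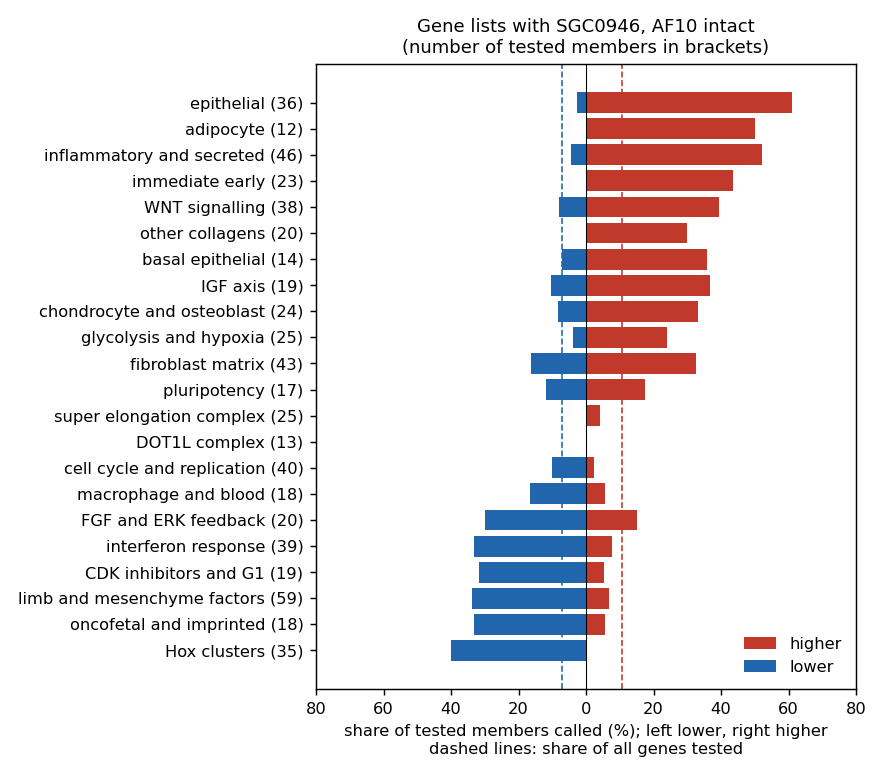
Share of the tested members of 22 gene lists called higher (red, to the right) or lower (blue, to the left) with SGC0946, with dashed lines at the shares of all genes tested, 10.6% and 7.1%. Epithelial genes reach 61.1% higher, inflammatory and secreted genes 52.2%, and Hox genes 40% lower.

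The calls were set against the change from MEF to day 4, taken from the AF10-deleted cells in DMSO so that no library is shared. Of 1163 genes that were over 2-fold higher on day 4 in both replicates, 302 rose with SGC0946 (26.0%) and 96 fell (8.25%). Of 1461 genes over 2-fold higher in MEFs, 262 rose (17.9%) and 139 fell (9.51%), and of the other 11312 genes 8.1% rose and 6.67% fell. Higher calls thus took a larger share of both classes than of the rest. The median level was 11.4 CPM in the first class, 4.44 in the second and 32.7 in the rest. No test was made of these shares.

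In AF10-deleted cells the drug was given under the same conditions, in 4 other libraries with the same 2 replicate numbers. The labels do not say whether a replicate number stands for the same source of cells in both genotypes. These cells had received Cre, and Mllt10 stood at 44.2 and 41.8 CPM in Day4_creAF10_DMSO and at 41.7 and 40.5 in Day4_creAF10_SGC, so most of its reads remained. There 736 genes were called higher (5.28%) and 344 lower (2.47%), and without the block 1 and 0, with 955 genes at an unadjusted p under 0.05. Without 1 library these counts were 343 and 150 (Day4_creAF10_DMSO replicate 1), 489 and 232 (replicate 2), 337 and 139 (Day4_creAF10_SGC replicate 1) and 397 and 142 (replicate 2). Of the 1480 genes that rose with AF10 intact, 1373 (92.8%) had a positive change there and 590 (39.9%) were called higher. Over all 13936 genes the sign was shared by 9401 (67.5%). Of the 990 that fell, 859 (86.8%) had a negative change and 202 (20.4%) were called lower. In the other direction, 590 are 80.2% of the 736 genes and 202 are 58.7% of the 344.

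By list the picture was uneven, and lists are given here against the 5.28% higher and 2.47% lower of all genes with AF10 deleted. Of the 36 epithelial genes 21 rose and 1 fell with AF10 deleted, with a median of 0.63 against 0.71, and of the 35 Hox genes 16 fell, with a median of -0.42 against -0.50. Hoxd12 changed by -2.28 ± 0.23 and Igfbp5 by -1.10 with AF10 deleted, next to -2.45 and -0.98 with AF10 intact, and the tests of these differences gave adjusted p = 0.924 and 0.782. Limb and mesenchyme factors fell in 19 of 59 cases, against 20. Of the 46 inflammatory and secreted genes 11 rose there, against 24, and of 39 interferon genes 4 fell, against 13, while calls over all genes were also fewer. The difference itself was called for 5 of the inflammatory and secreted genes and for 0 of the interferon genes. Other lists changed the sign of their median: WNT genes went from 0.25 with AF10 intact to -0.03 with AF10 deleted (7 higher and 6 lower), muscle genes from 0.45 to -0.15, pluripotency genes from 0.09 to -0.07 and Hox cofactors from 0.06 to -0.06, with 0 genes of these lists called for the difference. Medians of genes chosen in one comparison are drawn towards that comparison. The genes called higher with AF10 intact had medians of 0.71 there and 0.40 with AF10 deleted, and those called higher with AF10 deleted had 0.73 and 0.63. For lower calls the medians were -0.35 and -0.15 by the first choice and -0.33 and -0.34 by the second.

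The difference between the inhibitor effects was tested itself. It was called for 55 of 13936 genes (0.395%), 45 with a lower and 10 with a higher value in AF10-deleted cells; without the block 0 were called, with 303 genes at an unadjusted p under 0.05. Without Day4_fl_DMSO replicate 2 the counts were 10 and 2, without Day4_fl_DMSO replicate 1 28 and 11, without Day4_fl_SGC replicate 2 27 and 6, and without Day4_creAF10_SGC replicate 1 25 and 4. Of the 45 genes, 43 were called higher with the inhibitor when AF10 was intact, against 10.6% of all genes. The difference subtracts the AF10-intact change, so a high AF10-intact value favours a lower call. The count of 43 is therefore partly built in and is no separate result. Angptl7 changed by 1.32 with AF10 intact and 0.40 with AF10 deleted (difference -0.92, adjusted p = 3.14e-06), Htra3 by 1.93 and 0.74 (-1.19, 7.9e-05), the pentraxin Ptx3 by 0.82 and 0.10 (-0.73, 0.000249), and the immediate early response gene Ier5 by 0.84 and 0.08 (-0.76, 0.000489). Ptx3 had 85.8 and 87.8 CPM in Day4_fl_DMSO and 156 and 151 in Day4_fl_SGC, and Ier5 had 52.8, 51.8, 93.8 and 93.8. In both genes the AF10-intact groups were far apart. In the AF10-deleted cells Ptx3 had 127 and 117 CPM in DMSO and 133 and 128 in SGC0946, so its DMSO level there lay above that of AF10-intact cells.

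In the other direction stood Megf9, a membrane protein with EGF-like repeats, at -0.97 with AF10 intact and 0.23 with AF10 deleted (difference 1.19, adjusted p = 0.000731), Prune2 at -0.89 and -0.03 (0.85, 0.00404), the kinase regulator Pik3r3 at -0.66 and -0.04 (0.62, 0.0138), and the alcohol dehydrogenase Adh1 at -0.48 and 1.88 (2.36, 0.0198). Adh1 had under 2 CPM in all 4 AF10-intact libraries. Rpl26 and Rangrf passed the same test and are left out, since Rpl26 has near-identical copies that share its reads and Rangrf was listed at 0 in 3 of the 4 AF10-intact libraries. Of the 3 markers none was called for the difference, with Epcam at 2.50 and 1.42 (difference -1.08, adjusted p = 0.423).

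**Figure D5:**
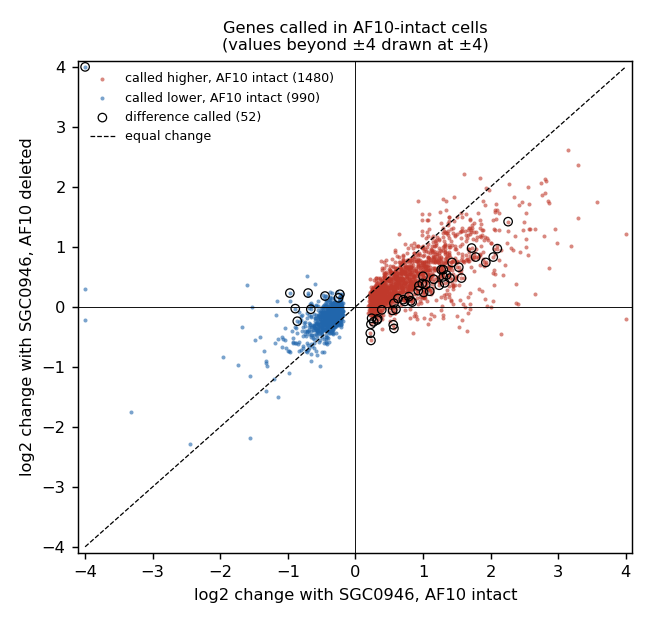
Log2 change with SGC0946 in AF10-deleted cells against that in AF10-intact cells for the 1480 genes called higher (red) and the 990 called lower (blue) with AF10 intact. Most points lie on the same side of 0 in both and nearer to 0 on the vertical axis, on which the genes were not chosen; circles mark the 52 of these genes called for the difference.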

How the data were processed

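The submitters' processing notes name RSEM, Bowtie and genome build mm9; versions are not given in the sources used here. Libraries were made from polyadenylated RNA by TruSeq chemistry, as the labels' protocols state. The deposited tables hold RSEM expected counts, estimated reads per gene with shared reads divided between genes, and the authors' TPM values, both per the file headers. TPM served only for a level per length and entered no test. Because 25 gene names read as dates in most files, rows were joined by transcript identifier.

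Expected counts were rounded and filtered with filterByExpr (13936 of 20325 genes). Tests used edgeR 4.0.16 in R 4.3.3 with TMM factors: 1 robust quasi-likelihood fit over 12 libraries, a term per group, a replicate block within each stage (MEF or day 4), and Benjamini-Hochberg adjustment over all genes tested. The biological coefficient of variation was 0.0549, with 4 residual and a median of 22.4 prior degrees of freedom, so most of the error estimate is borrowed across genes.

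Replicate numbers come from the titles. Whether they pair libraries was checked from deviations from group means, whose correlation across genes was 0.286 to 0.737 over 15 pairs of groups and 0.413 to 0.534 within day 4. The Y-linked genes held 4035 to 4780 counts per library of replicate 1, against 8 to 52 per library of replicate 2.

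Members and gene lists were chosen with earlier results of these data known. Named genes were, per direction, the 12 called genes with the lowest p and the 6 with the largest change. Both sets were limited to a mean of at least 5 CPM in the higher group and the same sign in both replicates. Up to 5 called members per list with the lowest p were added. To these come the 3 markers, every tested Hox gene and 5 genes per direction of the difference; not every gene so picked is named, and some are not reported here, and exceptions are said to be chosen after their values were seen. On simulated counts for the AF10-intact contrast, the fit called 45 of 50 genes changed by 0.6 on the log2 scale and 48 of 50 changed by 1. It called 11 of 13632 unchanged genes. Simulated counts follow the model they are drawn from, so these shares cannot show how many calls in the real libraries are true. Nor can they show whether the replicate block suits those libraries. The shares were not split by level, so they give no rate for weakly expressed genes. Alternatives were no block, 1 block for both stages, fewer libraries, DESeq2 1.42.0, other size factors, filters and dispersions, each library left out, and a transcript length trend taken out.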

Additional observations from a re-analysis of the deposited data

Results flagged for a closer look

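For 23 of the genes named above the inhibitor's effect differed between AF10-intact and AF10-deleted cells by edgeR's test of the difference itself (replicate block, Benjamini-Hochberg adjusted over 13936 genes). Values are the log2 change in AF10-deleted cells minus that in AF10-intact cells; no gene passed without the block.

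Among epithelial and collagen genes the difference was -0.69 for Cdh1 (adjusted p = 0.031), -0.95 for Spint1 (0.0392) and -1.13 for Col28a1 (0.000904). Cdh1 had 28.8 and 18.0 CPM in Day4_fl_DMSO and 43.6 and 31.9 in Day4_creAF10_DMSO, against 65.3 and 58.1 in Day4_fl_SGC and 68.2 and 57.0 in Day4_creAF10_SGC. Its levels thus lay apart in DMSO and close together with the inhibitor.

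Among secreted and matrix genes the values were -0.49 for Spp1, -0.58 for Mmp3, -0.68 for Ccl2, -1.10 for Lcn2, -0.61 for Mfap4, -0.73 for Ptx3, -0.92 for Angptl7, -1.19 for Htra3 and -0.65 for Apoe. Spp1 had 1820 and 2310 CPM in Day4_creAF10_DMSO and 2570 and 3310 in Day4_creAF10_SGC. Among immediate early genes they were -0.49 for Dusp1, -0.44 for Jund and -0.76 for Ier5. Outside the lists they were -0.74 for Aox3, -0.80 for Ret and -0.86 for Efs. In the other direction stood Nrk at 0.62, Pik3r3 at 0.62, Prune2 at 0.85, Megf9 at 1.19 and Adh1 at 2.36, the last at under 3 CPM in all 8 day 4 libraries.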

How the results depend on the processing

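The replicate block decides most calls. In AF10-intact cells 1480 genes were higher and 990 lower with a block within each stage, 559 and 247 with 1 block for both stages, and 123 and 32 with no replicate block; in AF10-deleted cells these were 736 and 344, 71 and 22, and 1 and 0. For the difference of effects 10 genes were higher and 45 lower, against 1 and 0 with 1 block for both stages and 0 and 0 with no block. DESeq2 with the block called 830 and 482 genes in AF10-intact and 294 and 148 in AF10-deleted cells. With 1 library left out, the lone sample being assumed to vary like the other groups, the AF10-intact counts were 826 to 986 higher and 410 to 609 lower, the AF10-deleted counts 337 to 489 and 139 to 232, and the counts for the difference 2 to 15 higher and 10 to 50 lower. The higher count for the difference was 4 with day 4 libraries only, 5 with the transcript length trend removed, an alternative chosen after seeing the data, and 37 without a low-count filter, where the lower count was 97. The cause of these changes was not tested.

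Of 189 named genes called, none reversed under any alternative run, 117 were called with each of the 4 libraries left out in turn, and 34 without the block. With 1.5-fold stage classes, 18.8% of day 4 genes and 15.3% of MEF genes rose, against 7.38% of the rest. With 2 sources per group, changes of weakly expressed genes rest on few counts and are the least precise.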
